A study of Caenorhabditis elegans with 4 samples.

Results

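EPC-1 binding on the X chromosome of Caenorhabditis elegans was described from 2 lists of ChIP-seq peaks, the only processed data used here. A peak belonged to the set when its row named chromosome X, with no choice by score or width. X held 348 of the 3455 peaks of replicate 1 and 256 of the 2833 peaks of replicate 2, together 604 of 6288. Both immunoprecipitations used the antibody SDQ0820 against EPC1 on whole L3 larvae of the wild-type strain N2, fixed with EGS and formaldehyde, and no mutant, treatment or other stage was part of the study. The labels name a separate input DNA for each immunoprecipitation. The inputs were not analysed here, and the labels do not say whether the replicates came from separate cultures. Positions are those of WormBase release WS190. The score of a peak is the authors' own value, its scale is not stated, and many of the highest scores are tied at 3100. Read depth was unknown, so all intervals cover the counting of peaks only.

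The worm protein EPC-1 corresponds to Enhancer of Polycomb, a scaffold subunit of TIP60 (NuA4) complexes, which acetylate histones in nucleosomes and are known mostly as coactivators of transcription. In yeast the homologue Epl1 joins the catalytic subunit of NuA4 to the nucleosome. The X chromosome of C. elegans is regulated as a whole. In XX animals a condensin-like dosage compensation complex binds along X and lowers its transcription, and in the germ line X is largely silent and poor in genes that the germ line uses. L3 larvae hold both somatic tissue and a dividing germ line, and in whole animals these sources cannot be told apart.

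X carried fewer peaks for its length, and lower-scoring ones, than any autosome. It made up 17.6% of the 99.9 Mb spanned by peaks but 10.1% of the peaks of replicate 1 and 9.04% of those of replicate 2. Peaks covered 613 kb of X in replicate 1 (3.48% of its span) and 510.1 kb in replicate 2 (2.89%), against 7.005% and 6.50% of the autosomes. In both lists X had the lowest covered share, density, median score, median width, share of broad peaks and share of peaks with a close neighbour of the 6 chromosomes. With 2 lists an exact two-sided sign-flip permutation cannot give a p below 0.5, and each of the 10 quantities compared between X and the autosomes gave 0.5, also after Benjamini-Hochberg adjustment. The differences are therefore given by their size in each list.

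Along X, peaks were found in every 1 Mb bin, counted from the left end of the chromosome. The 17 whole bins held 12 to 30 peaks in replicate 1 (mean 19.7 ± 4.96, SD over bins) and 8 to 27 in replicate 2 (14.5 ± 4.77). The most peaks were in bin 15 (14000001 to 15000000), with 30 in replicate 1 and 27 in replicate 2, of which 25 in each list were shared. That bin had 52.7 kb of X covered by peaks in replicate 1 and 49.5 kb in replicate 2, the highest of the whole bins in each list. Bin 1 at the left end followed with 28 and 21 peaks, and bin 16 (15000001 to 16000000) with 27 and 20. The crowded stretches of X thus lay at its left end and between 14 and 16 Mb.

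The thinnest bins by the mean of the lists lay inside the chromosome. Bin 6 (5000001 to 6000000) held 12 peaks in replicate 1 and 8 in replicate 2, bin 13 (12000001 to 13000000) held 13 and 10, and bin 11 (10000001 to 11000000) held 16 and 10. In single lists bin 4 of replicate 1, with 14 peaks, and bin 7 of replicate 2, with 9, were among the 3 lowest. Replicate 1 had more peaks than replicate 2 in 16 of the 17 whole bins and as many in the other, bin 4, with 14 in each. The lists had a similar profile, with a correlation of counts over the 17 bins of 0.89 (Pearson's r) or 0.83 (Spearman's rho). This is a description only, since both lists come from the same kind of animals and from peaks that mostly coincide. The replicates differed most in bin 7 (6000001 to 7000000), where replicate 1 had 19 peaks and replicate 2 had 9. All 9 were shared, and the other 10 peaks of replicate 1 had no partner.

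**Figure D1:**
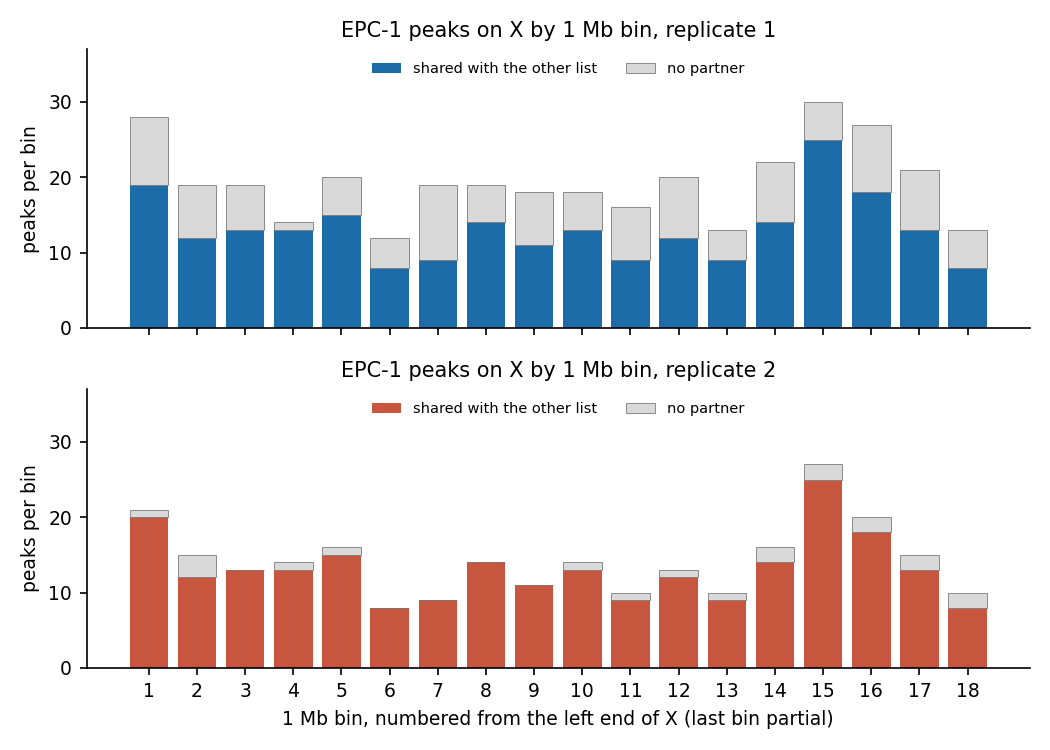
EPC-1 peaks on X in 1 Mb bins numbered from the left end (horizontal axis) against peaks per bin (vertical axis), replicate 1 above and replicate 2 below; coloured parts are peaks shared with the other list and grey parts peaks with no partner. Bin 15 is the highest in both lists, with 30 and 27 peaks, and bin 7 shows the widest gap between the lists, with 19 and 9; bin 18 is partial.

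Crowding of bins and height of scores did not go together in the same way in both lists. The median score of a whole bin ran from 91.3 (bin 13) to 287 (bin 15) in replicate 1, and from 83.5 (bin 11) to 363 (bin 6) in replicate 2. Bin 6, with the fewest peaks, thus had the highest median score in replicate 2, while bin 15, with the most, had it in replicate 1. Over the 17 bins the count and the median score had a Spearman rho of 0.26 in replicate 1 and -0.19 in replicate 2. The counts on X also had a low ratio of variance to mean. The variance of the bin counts was 1.25 times their mean in replicate 1, the lowest of the 6 chromosomes, where the autosomes ran from 1.67 on IV to 3.74 on II. With scores of 100 or more alone it was 1.54 and no longer the lowest. In replicate 2 it was 1.57 on X, with 1.52 on IV below it and 3.29 on II the highest. This ratio tends to be smaller where counts are smaller, and as a share of the mean the SD of the counts on X (0.25 and 0.33) lay among those of the autosomes (0.22 to 0.36 and 0.23 to 0.40).

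Shared peaks and peaks without a partner were split differently over X, but not in the same way in both lists. Of the 235 shared peaks of replicate 1, 28.5% lay in the middle of 3 equal parts of X, 33.2% in the left and 38.3% in the right part. Of its 113 peaks without a partner 36.3% lay in the middle, 28.3% in the left and 35.4% in the right part. In replicate 2 the shared peaks were split as 33.5%, 28.4% and 38.1% from left to right, and its 20 peaks without a partner as 6, 3 and 11. The shared peaks of the lists are the same pairs, so their splits had to be alike. All peaks of replicate 1 were split as 31.6%, 31.0% and 37.4%, with nearly as many in the middle as in the left part, and all peaks of replicate 2 as 33.2%, 27.3% and 39.5%. In the middle part, peaks without a partner thus had the larger share in replicate 1 and the smaller in replicate 2, which rests on 20 such peaks. These shares were not tested.

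The stretches without a peak were long and mostly the same in both lists. Merged, the lists made 368 regions that covered 690.0 kb of X, with a median of 26.3 kb between them. No fewer than 52 stretches of 100 kb or more had no peak in either list and made up 44.1% of the span of X. The longest ran from 3246845 to 3605059 (358 kb), and the next from 12019021 to 12362420 (343 kb) and from 5524550 to 5780099 (256 kb). The next 2 ran from 1627857 to 1855604 (228 kb) and from 6842038 to 7067127 (225 kb). The longest was bounded by low peaks, scoring 106.9 and 146 in replicate 1 and 58.0 and 149.9 in replicate 2. The last of these 5 began at one of the highest pairs on X, with scores of 2444 and 2312.

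Some stretches without a peak in a single list were longer, because the other list had peaks there. In replicate 2 the longest ran from 6297268 to 6740520 (443 kb), and there replicate 1 had 5 peaks, scoring 52.2 to 149.6. In replicate 1 the longest ran from 1627787 to 2002258 (374 kb), and there replicate 2 had 3 peaks, scoring 56.6 to 206. The stretch of replicate 2 from 10767771 to 11030210 (262 kb) held 2 peaks of replicate 1, with scores of 218 and 228. By list, stretches of 100 kb or more made up 48.3% of the span of X in replicate 1 and 58.6% in replicate 2, against 22.7% and 28.8% on the autosomes. On V, the sparsest autosome, they made up 40.2% and 49.9%. At a like density, X in replicate 1 (19.7 peaks per Mb) and V in replicate 2 (19.9 peaks per Mb) were thus near each other, at 48.3% and 49.9%, a comparison chosen after the values were seen.

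Neighbouring peaks on X lay far apart. From midpoint to midpoint the median distance came to 29.2 kb for replicate 1 (quartiles 11.8 and 67.7) and to 47.0 kb for replicate 2 (18.0 and 99.9). On the autosomes it was 14.2 kb and 17.6 kb. Distances of 100 kb or more made up 16.1% of those on X in replicate 1 and 25.1% in replicate 2, and the shortest were 1.55 kb and 1.43 kb. Fewer peaks make for longer distances, so the distances were also divided by the mean distance of their chromosome, which puts them on a common scale. The median was then 0.58 times the mean on X in replicate 1, within the autosomal range of 0.57 to 0.59. In replicate 2 it was 0.68 times the mean, above the autosomal range of 0.55 to 0.61. In the list of replicate 1, the relative spacing on X was thus like that of the autosomes, and in replicate 2 it was more even by this measure. With replicate 1 held to as many peaks as replicate 2, the value on X was 0.67 in replicate 1, above its autosomal range of 0.58 to 0.62. With scores of 100 or more alone, X lay above the autosomal range in both lists. It was 0.655 in replicate 1 (autosomes 0.563 to 0.650) and 0.647 in replicate 2 (0.594 to 0.627). The ratio on X in replicate 1 thus depended on which peaks were kept. Both settings dropped low-scoring peaks, so the number of peaks and their scores changed together and cannot be told apart. Whether the ratio fully takes out the number of peaks was not tested.

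**Figure D2:**
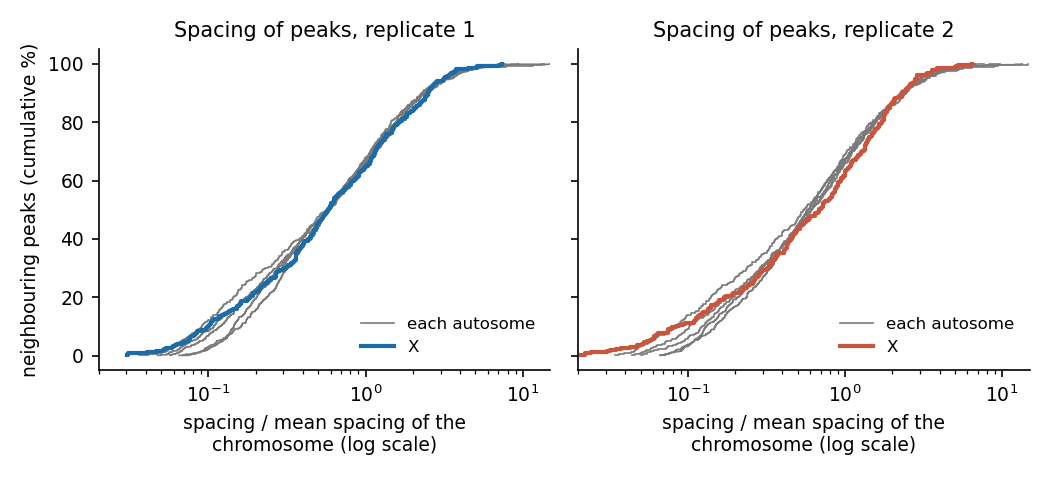
Distance between neighbouring peak midpoints divided by the mean distance of the chromosome (horizontal axis, log scale) against the cumulative percentage of neighbours (vertical axis), one line per chromosome, X in colour and autosomes in grey. The X line runs among the autosomes in replicate 1, where its median is 0.58, and to their right at the middle in replicate 2, where its median is 0.68.

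Close neighbours and runs of peaks were few on X. Another peak of the same list lay within 5 kb, edge to edge, of 99 X peaks of replicate 1 (28.4%, exact Clopper-Pearson 95% interval 23.8 to 33.5) and of 54 of replicate 2 (21.1%, 16.3 to 26.6), where the share over all chromosomes was 48.7% and 41.7%. Chromosome V, the next sparsest, gives a nearer match. Replicate 2 had 19.9 peaks per Mb on V, close to the 19.7 of X in replicate 1, and 37.4% (32.8 to 42.3) of those V peaks had a neighbour within 5 kb. This comparison was chosen after the values were seen, sets different lists side by side, and was not tested.

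Runs of at least 3 peaks, each within 5 kb of the next, held 27 X peaks of replicate 1 in 8 runs (7.76%, interval 5.18 to 11.1) and 16 of replicate 2 in 5 runs (6.25%, 3.61 to 9.95). Over all chromosomes such runs held 20.7% of replicate 1 peaks and 16.8% of replicate 2 peaks. On V in replicate 2, at 19.9 peaks per Mb, they held 10.4% (7.62 to 13.7), an interval that overlaps that of X in replicate 1. This comparison too was chosen after the values were seen, sets different lists side by side, and was not tested. No run on X exceeded 4 peaks, whereas the largest autosomal run had 9 in replicate 1 and 7 in replicate 2. The largest run on V had 5 peaks in replicate 1, and in replicate 2 neither IV nor V had a run of over 4.

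The same 4 runs were found in both lists. The run from 3099335 to 3118077 had 4 peaks in each list, with scores of 84.8 to 1654 in replicate 1 and 167 to 1019 in replicate 2, and it lies 129 kb to the left of the longest empty stretch. The run from 1445110 to 1457191 had 4 peaks in replicate 1 and 3 in replicate 2 and holds a pair tied at 3100. Those from 2233469 to 2243760 and from 16792508 to 16800172 had 3 peaks in each list, all shared. Of the other 4 runs of replicate 1, the one from 14969600 to 14984123 had 4 peaks, of which 3 were shared, and the one of replicate 2 alone, from 13968562 to 13978405, had 3, of which 2 were shared.

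Most X peaks were narrow. The median X peak measured 1504 bp in replicate 1, with quartiles of 1316 and 1827, and 1614 bp in replicate 2, with quartiles of 1441 and 2063, against 1567 bp and 1708 bp on the autosomes. Broad peaks, of 3000 bp or more, numbered 15 on X in replicate 1 (4.31%, interval 2.43 to 7.01) and 22 in replicate 2 (8.59%, 5.46 to 12.7), where all chromosomes gave 7.96% and 11.6%. The X peaks nearest to that limit measured 2997 and 3061 bp (replicate 1) and 2960 and 3039 bp (replicate 2). Wider X peaks tended to have higher scores, with a Spearman rho of 0.61 in replicate 1 and 0.60 in replicate 2, given as a description across peaks. Autosomal peaks weighted to the scores of the X peaks, by score decile, would be broad in 4.74% of cases in replicate 1 and 7.22% in replicate 2. Set against these, the share on X was lower by a little in replicate 1 and higher in replicate 2, so the lower share of broad peaks on X went with its lower scores, and whether the scores account for it was not tested.

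Broad peaks held a larger share of the bases under X peaks than of the X peaks, as their width implies. They made up 13.5% of those bases in replicate 1 and 21.7% in replicate 2, against 4.31% and 8.59% of the peaks. The share of bases under broad peaks was not worked out for the autosomes, so these values do not set X apart. In 13 pairs both peaks were broad, in 1 pair that of replicate 1 alone and in 8 pairs that of replicate 2 alone. The widest pair, from 16928765 to 16941708, had widths of 12344 and 12944 bp and a score of 3100 in each list. The next ran from 4139569 to 4148317, with widths of 6792 and 8749 bp and scores of 1409 and 782. After it came the pair from 3110620 to 3118077, with widths of 7458 and 7294 bp and scores of 1654 and 1019, which is part of the run at that place.

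Not every wide pair had a high score. The pair from 8016613 to 8023522 was 5787 and 6910 bp wide, with scores of 1211 and 1054. The last of the 5 widest, from 14384226 to 14390286, was 5819 and 6061 bp wide but scored 264 in replicate 1 and 62.4 in replicate 2. A peak of 5231 bp in replicate 2, from 1883101 to 1888331, had no partner and a score of 206. It lay 114 kb from the nearest peak of replicate 1, inside the longest empty stretch of that list.

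**Figure D3:**
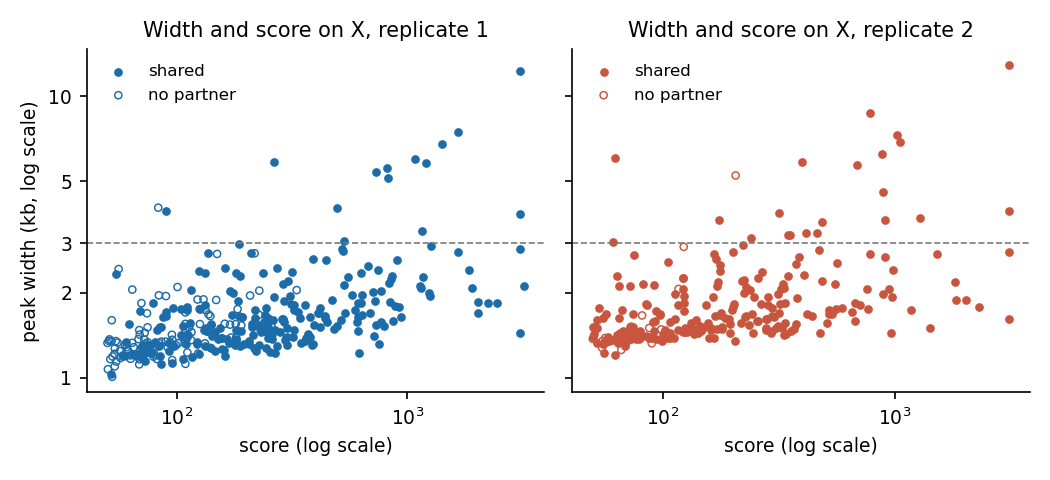
Score (horizontal axis, log scale) against width in kb (vertical axis, log scale) of each X peak, replicate 1 left and replicate 2 right; filled points are shared peaks, open points have no partner, and the dashed line marks 3 kb. Broad peaks are mostly shared and mostly score high, and the widest, 12.3 and 12.9 kb, is tied at 3100 in both lists.

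Of the X peaks, 235 of replicate 1 (67.5%, interval 62.3 to 72.4) and 236 of replicate 2 (92.2%, 88.2 to 95.2) overlapped a peak of the other list by at least 1 bp, where 79.0% and 95.1% did so over all chromosomes. In each list that share on X lay below those of all 5 autosomes, with ranges of 77.1% to 83.1% and 94.6% to 96.2%. The counts differ because 1 peak of replicate 1 met 2 peaks of replicate 2. The limit of 1 bp mattered little, since the smallest overlap of a pair on X was 1024 bp, and the nearest miss was 0.211 kb in replicate 1 and 0.791 kb in replicate 2. The lists had 433 kb of X in common, which is 70.6% of the X bases in the replicate 1 list and 84.8% of those in the other.

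Peaks without a partner scored lower than shared ones, and most had no peak of the other list close by. In replicate 1 they had a median score of 82.0 (quartiles 65.1 and 113) against 258 (142 and 536) for shared peaks, and 71 of the 113 scored under 100. Their median width was 1343 bp against 1583 bp. In replicate 2 the 20 peaks without a partner had a median score of 69.7 against 176, and 17 of them scored under 100. The nearest peak of the other list was a median of 18.9 kb away in replicate 1 and 16.4 kb away in replicate 2, and 25 of the 113 (22.1%) and 4 of the 20 had one within 5 kb. Most of these peaks thus lay apart from any peak of the other list.

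Lower scores went with part of the lower sharing on X. In replicate 1 the X share was 12.7 percentage points below the autosomal 80.3%. Autosomal peaks weighted to the score deciles of the X peaks gave 73.8%, which leaves X 6.26 points lower. In replicate 2 the crude difference was 3.19 points, and at the X scores (93.3%) it was 1.10 points. The weighting thus took away 50.8% of the difference in replicate 1 and 65.5% in replicate 2. With lists of equal length the crude difference was 8.85 points in replicate 1 and 5.82 in replicate 2, and 5.06 and 0.823 points were left, so that 42.9% and 85.9% were taken away.

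By decile, the X share in replicate 1 was below the autosomal share in each of the 6 lowest deciles. It was 18.2% (interval 8.19 to 32.7) against 31.1% (25.9 to 36.7) in the lowest, and 46.5% (31.2 to 62.3) against 61.7% (56.0 to 67.2) in decile 3. In deciles 7 to 10 every X peak of both lists was shared. In replicate 2 the X share was below the autosomal one in deciles 1, 3 and 5 and above it in deciles 2, 4 and 6. The intervals of X and the autosomes overlapped in every decile of both lists. By score quartile, with more peaks per class, they did not overlap in quartile 2 of replicate 1 (scores of 108 to 242). There the share was 64.8% (55.0 to 73.8) on X and 79.3% (76.3 to 82.2) on the autosomes. In the other quartiles of both lists they overlapped. The difference that remained at equal scores was not tested.

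**Figure D4:**
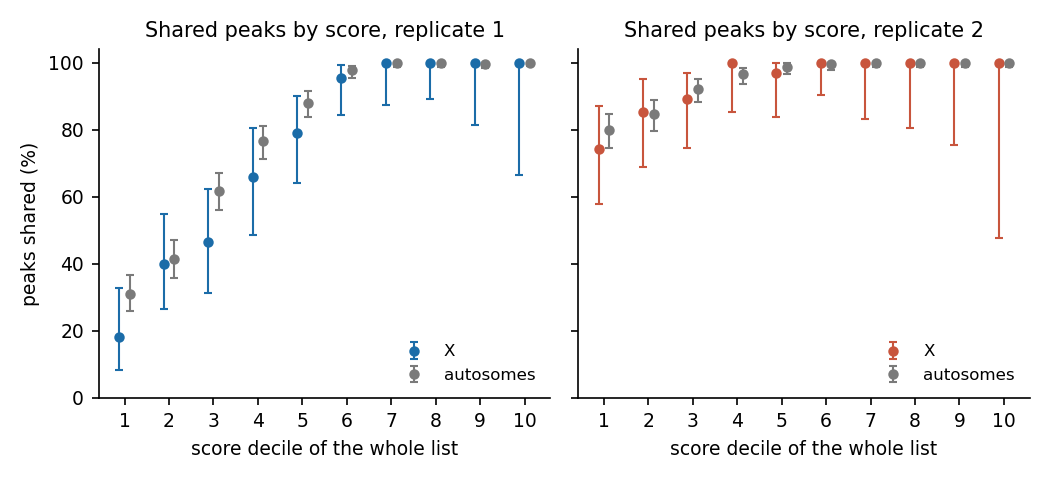
Score decile of the whole list (horizontal axis) against the percentage of peaks shared (vertical axis), X in colour and autosomes in grey, replicate 1 left and replicate 2 right; bars are exact 95% intervals. X points of replicate 1 lie below the autosomal points in deciles 1 to 6, for example at 18.2% against 31.1% in the first, and all X peaks of deciles 7 to 10 are shared.

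Paired X peaks sat at the same place in both lists, but their scores correlated less between the lists than those of autosomal pairs. Midpoints of the 235 pairs lay a median of 46 bp apart (48 bp on the autosomes). The replicate 2 peak was the wider in 67.7% of pairs, by a median of 81 bp (82 bp on the autosomes). Between the lists, the scores of X pairs correlated at 0.78 by Spearman's rho and, as log10 scores, at 0.83 by Pearson's r, against 0.92 and 0.93 in 2446 autosomal pairs. These are descriptions across peaks, which are not independent replicates. Both peaks had the tied high score in 4 of the 235 X pairs and in 191 of the 2446 autosomal pairs. Such pairs were kept in the correlations, and their part in the difference was not tested. Scores on X also spanned a narrower range, with quartiles of 86.6 and 344 in replicate 1 against 110.3 and 728 on the autosomes, and the part of this range in the lower correlation was not tested.

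The replicate 1 score was the higher in 183 of the 230 X pairs under 3100 (79.6%) and in 75.2% of 2219 such autosomal pairs. The median ratio of the replicate 1 to the replicate 2 score was 1.47 on X (quartiles 1.07 and 2.04, binomial 95% interval of the median 1.34 to 1.60) and 1.29 on the autosomes (quartiles 1.00 and 1.71). A ratio over 2 was found in 64 X pairs (27.8%) toward replicate 1 and in 8 (3.48%) toward replicate 2, against 16.0% and 2.75% of the autosomal pairs. X pairs thus leaned to replicate 1, as autosomal pairs did, and by a higher median ratio. The interval counts each pair as independent and was worked out for X only. Pairs were not matched for score, and the difference in ratio between X and the autosomes was not tested.

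**Figure D5:**
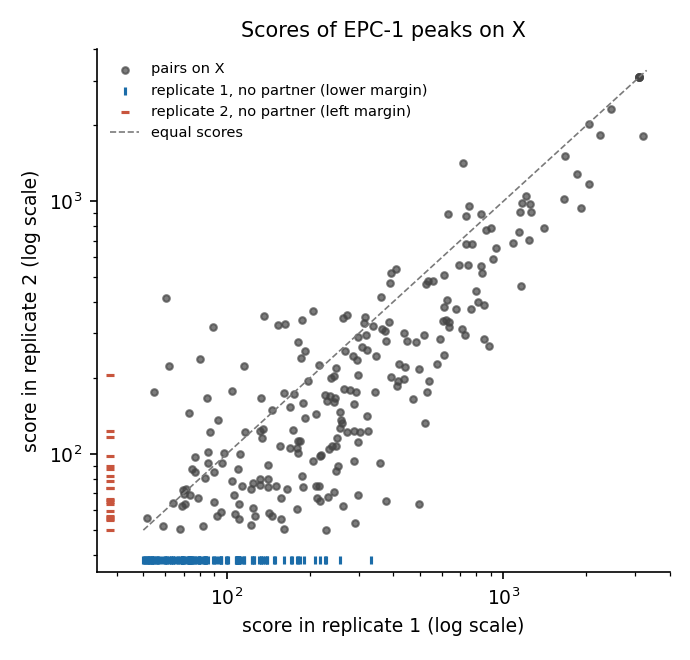
Score in replicate 1 (horizontal axis, log scale) against score in replicate 2 (vertical axis, log scale) for the 235 pairs on X; ticks in the lower and left margins are peaks with no partner, and the dashed line marks equal scores. Most pairs lie under the line, 183 of the 230 under 3100, and the ticks crowd at low scores.

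The 10 shared X regions with the highest mean score percentile were spread over 8 bins. Pairs from 1445110 to 1447984, 9295893 to 9297507, 11603033 to 11606936 and 16928765 to 16941708 were tied at 3100 in both lists. That score was reached by 5 X peaks of replicate 1 (1.44%) and 4 of replicate 2 (1.56%), where all chromosomes gave 6.48% and 7.27%. Next, the pair from 4189728 to 4191923 scored 3200 in replicate 1, the highest value on X, and 1808 in replicate 2. The other 5 were not tied and could be placed in order. They lay from 6840159 to 6842037 (2444 and 2312), from 4468804 to 4470708 (2037 and 2023), from 14168689 to 14170568 (2234 and 1835), from 14817315 to 14820238 (1667 and 1518) and from 2236828 to 2238685 (2036 and 1175).

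These regions were of several kinds. The pair at 9295893 was narrow, at 1438 and 1615 bp, and its nearest neighbour was 23.3 kb away in either list. The pair at 11603033, 3802 and 3904 bp wide, had its nearest neighbours at 38.8 and 38.5 kb. By contrast the pairs at 1445110 and 2236828 belonged to runs found in both lists, with neighbours at 1.88 and 1.98 kb and at 2.12 and 2.09 kb. The broad pair at 16928765 had a neighbour at 2.18 kb in replicate 1 and at 1.17 kb in replicate 2. High scores on X thus occurred outside runs as well as in them, and in the widest region.

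Pairs that differed most between the lists were found in both directions. Toward replicate 1 the highest ratios were 7.84 from 10765421 to 10769445 (497 and 63.3), 5.78 from 826964 to 828399 (377 and 65.2) and 5.47 from 3126813 to 3128695 (291 and 53.2). A ratio of 4.56 was found from 16901263 to 16902806 and one of 4.34 from 1034503 to 1036107. Toward replicate 2 the highest was 6.88, from 9604872 to 9608125 (60.4 and 416), where the peak measured 1333 bp in the first list and 3254 bp in the other. Next came 3.61 from 167944 to 170161, 3.56 from 6740387 to 6744374, 3.22 from 11471310 to 11474993 and 2.96 from 15634473 to 15636525. In 4 of these 5 the replicate 2 peak was the wider, by at least 667 bp, the exception being the pair at 6740387 with 3920 and 3854 bp.

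Peaks without a partner reached moderate scores at a few places. In replicate 1 the highest were from 13526319 to 13528365 (331), 15280508 to 15282041 (257), 10899575 to 10901612 (228), 7234109 to 7235780 (227) and 10770327 to 10773092 (218). The first 3 lay 66.9, 58.2 and 129 kb from the nearest replicate 2 peak, and the other 2 lay 0.851 and 2.56 kb from one. The peak at 10770327 stands beside the pair with the highest ratio toward replicate 1, so at that place replicate 1 had both a higher score and an added peak. In replicate 2 they were from 1883101 to 1888331 (206), 15481402 to 15484317 (123), 12666596 to 12668661 (117), 13250838 to 13252321 (98.6) and 1908960 to 1910283 (89.7). The first and last of these lay in the same empty stretch of replicate 1.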

How the data were processed

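ChIP-seq of 2 EPC-1 immunoprecipitations from L3 larvae was used. Per the labels' protocols, ground frozen worms were fixed in EGS for 20 min and in EGS with formaldehyde for 10 min, while a second protocol text gives formaldehyde alone. Fragments of 250 to 500 bp were amplified for 18 cycles. The submitters' processing notes name BWA as aligner. Each deposited list gives start, end and the authors' score per peak, in WS190 coordinates per the file headers. Peaks are named after MACS, while the source column names MA2C. Caller settings, use of the input and depth: not given in the sources used here. A higher depth or a lower threshold in 1 list would tend to give that list more peaks, narrower gaps and a lower share of peaks with a partner.

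Peaks counted as shared at 1 bp of overlap and matched in pairs, each peak used once, taking larger overlaps first. Density used the span between the outermost peaks of both lists. Bins were filled by midpoint. Shares have exact Clopper-Pearson 95% intervals. Named were the 10 pairs with the highest mean score percentile on X, the 5 widest, the 5 highest peaks without a partner per list, the 5 highest ratios each way, the 5 longest gaps, the 5 largest runs per list, and the 3 fullest and 3 emptiest bins. Members and rules were chosen with earlier results of these data known. Genes and sequence were not assigned, because the gene table used here is of another build. The code was tested on simulated lists. Software was SciPy 1.17.1, pandas 2.3.3 and NumPy 2.4.6 under Python 3.11.15, with figures by matplotlib 3.10.9.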

Additional observations from a re-analysis of the deposited data

How the results depend on the processing

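Of 41 recomputed values of 11 results, 27 moved by no more than the spread between the lists and 14 by more. For the score ratio the limit was its binomial interval, and for runs 1.5 times. A small move says little where that spread is wide, as for the shared share (SD 17.4 percentage points). Only the X shared share less the autosomal share at X scores could change sign, and it stayed negative. Scores of 100 or more alone gave a median spacing of 57.4 kb (mean of the lists, against 38.1 kb), 16.7% of X peaks within 5 kb of a neighbour (24.8%), 4 runs (6.5), a longest gap of 472 kb (409 kb) and a median width of 1685 bp (1559 bp). The variance to mean ratio of bin counts was 1.04 for bins of 500 kb and 2.16 for bins of 2 Mb (1.41). Neighbours within 2 kb and 10 kb made up 10.9% and 39.6%. Runs numbered 4 at 3 kb, 14.5 at 10 kb and 2 with 4 or more peaks. Broad peaks from 2500 bp made up 11.4% (6.45%). The longest gap of the merged lists was 358 kb. These values used other limits or bins, only the higher-scoring peaks or, in the merged lists, more peaks. What moved each of them was not tested. An overlap of 50% of both peaks gave shared shares of 67.0% and 91.0%, and equal list lengths 80.8% and 82.8%. The values of each list alone stand in the text, and the score ratio needs both lists. No paired analysis was possible because values of 1 group only were used, the inputs having none here. Unknown depth limits what a missing low-scoring peak shows.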

Other observations

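Lone peaks were a larger part of X than of the autosomes. Peaks with no other peak of their list within 50 kb numbered 39 on X in replicate 1 (11.2%) and 58 in replicate 2 (22.7%), against 2.54% and 3.96% of autosomal peaks. X is also the chromosome with the fewest peaks per Mb in both lists. They were not private to a list more often than the rest, since 74.4% of them in replicate 1 and 94.8% in replicate 2 were shared, beside 67.5% and 92.2% of all X peaks. Their median score was 133 in replicate 1 and 159 in replicate 2, against 173 and 177 in X peaks with a neighbour within 5 kb. On the autosomes the same classes had medians of 179 and 214 for lone peaks and of 281 and 304 for peaks with a close neighbour. Scores of neighbouring X peaks had a Spearman rho of -0.0011 in replicate 1 (347 neighbours) and 0.040 in replicate 2 (255 neighbours), so a high peak on X said little about the height of the next. These values were read after the data were seen and were not tested.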
